A study of Mus musculus with 18 samples.

Results

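The regions described here are the long intergenic non-coding RNA (lincRNA) entries of 5 to 20 kb on a mouse expression array. They were chosen by the array's own annotation: probes described as lincRNA, with a name that gives a chromosome from 1 to 19, a start at or beyond 6000000, an end 5000 to 20000 bases on, and a strand, F for forward and R for reverse. All positions are those of the array, on mouse build mm9. Of 4622 lincRNA regions with 16251 probes on the array, 1551 regions with 5889 probes were members, and 2 further entries within these limits were left out of the selection. The members lay in 999 intervals, of which 552 were represented on both strands. Their lengths ran from 5015 to 19880 bases with a median of 10900, and a region had between 1 and 10 probes, with a median of 3.

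RNA was measured in whole muscle fibers that had been picked one by one and divided into nuclei and cytoplasm. Pools of 5 to 10 fibers came from 3 hindlimb muscles of 3 month old female CD1 mice with no genetic change or treatment: the fast extensor digitorum longus (EDL), the slow soleus and the fast tibialis anterior (TA). Each muscle and fraction had 3 pools, which gave 18 one-colour arrays, 9 of nuclear and 9 of cytoplasmic RNA. By the labels, each EDL and soleus pool came from 2 mice, the same pair for both muscles and both fractions, whereas TA pools came from 1 or 2 mice. Of the 3 TA cytoplasm pools, 2 shared a mouse that was also in 1 of the EDL and soleus pairs. The EDL and soleus cytoplasm arrays shared 1 slide and the EDL and soleus nuclei arrays another, so that slide and fraction cannot be told apart in those muscles. In TA, 1 slide held all 3 nuclear arrays and 1 cytoplasmic array, and values within that slide are given beside the result for TA. A level below is a quantile-normalized log2 intensity of 1 probe, and a difference is nuclei minus cytoplasm in log2 units, so that 1 unit is a 2-fold difference.

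A lincRNA is a transcript without a long open reading frame that comes from between protein-coding genes. Many lincRNAs stay in the nucleus, where they can bind chromatin or organize nuclear bodies, and others are exported and can affect the stability or translation of messenger RNAs. Muscle fibers are single cells with many nuclei spread along a large cytoplasm, which makes the division of an RNA between both compartments a basic property of how it is used there. Region entries such as these often mark transcribed intervals whose exons were not known, so probes of 1 region can read different exons, introns or overlapping transcripts.

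The probes were 60 bases long, and the following are shown because the largest contrasts rest on them. A_30_P01030591 at chr5:22928574-22928633 and A_30_P01027543 at chr1:175706588-175706647 were higher in nuclei, both on the minus strand. A_30_P01026647 at chr1:85119693-85119752 and A_30_P01027896 at chr7:71227978-71228037 on the minus strand, and A_30_P01018030 at chr2:181653098-181653157 on the plus strand, were higher in cytoplasm. A_30_P01030196 at chr1:78591676-78591735 on the minus strand was higher in soleus than in EDL nuclei, and A_30_P01025375 at chr4:129498730-129498789 on the plus strand was lower in soleus than in EDL cytoplasm. A_30_P01027818 at chr17:85422917-85422976 on the minus strand had an excess in nuclei that differed between muscles. Capitals in A_30_P01027543 mark a stretch that recurs in a probe of another lincRNA region, and the other sequences are in lower case.
A_30_P01030591: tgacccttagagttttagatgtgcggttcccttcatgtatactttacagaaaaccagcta
A_30_P01027543: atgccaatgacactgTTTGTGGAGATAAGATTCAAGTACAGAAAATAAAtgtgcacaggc
A_30_P01026647: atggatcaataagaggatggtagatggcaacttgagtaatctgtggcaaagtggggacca
A_30_P01027896: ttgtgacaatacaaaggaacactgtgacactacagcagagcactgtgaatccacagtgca
A_30_P01018030: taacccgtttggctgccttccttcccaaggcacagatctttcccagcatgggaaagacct
A_30_P01030196: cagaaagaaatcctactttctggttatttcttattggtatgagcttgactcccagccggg
A_30_P01025375: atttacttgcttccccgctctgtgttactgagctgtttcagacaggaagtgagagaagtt
A_30_P01027818: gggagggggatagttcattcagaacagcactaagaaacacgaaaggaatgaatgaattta

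A second pair shows both strands of 1 place. A_30_P01026832 of the forward region and A_30_P01030955 of the reverse region of the interval chr16:89961600-89971725 cover the same bases, chr16:89963529-89963588, and are complementary over all 60 of them, which are therefore all in capitals. Their differences were -3.13 (SE 0.18) and -3.01 (SE 0.17), both higher in cytoplasm.
A_30_P01026832: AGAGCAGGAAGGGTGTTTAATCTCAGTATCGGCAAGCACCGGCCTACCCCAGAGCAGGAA
A_30_P01030955: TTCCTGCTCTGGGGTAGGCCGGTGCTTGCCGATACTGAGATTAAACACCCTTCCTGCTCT

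Most of the lincRNA regions gave a signal in muscle fibers. A probe was called well above background by the scanner software, which compares its spot with the local background. On all 18 arrays this held for 2564 member probes (43.5%, against 46.8% of the other probes on the array), and on no array for 842 (14.3%, against 15.1%). Of the 1551 regions, 1159 (74.7%) had at least 1 probe well above background on all 18 arrays, and 48 had none on any array. Per array, the share of member probes well above background was 66.2% ± 3.48 in EDL cytoplasm and 64.3% ± 1.33 in EDL nuclei (SD, n = 3). In soleus it was 60.2% ± 5.7 in cytoplasm and 65.1% ± 1.57 in nuclei, whereas TA had 68.4% ± 6.08 in cytoplasm and 58.9% ± 2.47 in nuclei. Cytoplasmic arrays thus spread more than nuclear ones, and the lowest share of all, 54.2%, was that of the second soleus cytoplasm array. Between replicates the median SD of a probe was 0.28 to 0.40 in the cytoplasm groups and 0.13 to 0.17 in the nuclei groups.

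After quantile normalization, member probes were more often higher in cytoplasm than in nuclei, and more so than all probes. The direction turned with no scaling between arrays, where 1562 were higher in nuclei and 1166 in cytoplasm. It also turned in the deposited values, with 98 and 62 of 303 tested members. Over the 3 muscles, 4359 member probes could be tested, meaning that they had a value on at least 2 of 3 arrays of every group. Of these, 2176 (49.9%) were higher in cytoplasm, where 38.6% of all probes tested on the array were, and 900 (20.6%) were higher in nuclei, against 31.2% of all probes (limma, adjusted p under 0.05 over all probes). The median difference was -0.41, against -0.08 over all probes. The 10th and 90th percentiles of the members were -1.44 and 0.89. Beside them, lincRNA regions under 5 kb had a median of -0.57 with 56.4% of probes higher in cytoplasm, and those over 20 kb a median of -0.43 with 51%, which were not tested against the members.

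More member probes were higher in cytoplasm than in nuclei in each muscle, and the size of the excess varied. It depended on the setting: with the slide as a random block soleus had 159 higher in cytoplasm and 172 in nuclei, with no scaling between arrays EDL had 892 and 1185 and soleus 233 and 2311, and in the deposited values, which cover 303 tested members, EDL had 45 and 65 and soleus 38 and 64, with medians above 0 in all 3 muscles. In EDL, 1590 of 4760 tested member probes (33.4%) were higher in cytoplasm and 710 (14.9%) in nuclei, where the shares over all probes were 26.5% and 20%. In soleus, 1226 of 4693 (26.1%) were higher in cytoplasm and 688 (14.7%) in nuclei, against 21.7% and 18.7% of all probes. In TA, 2105 of 4701 (44.8%) were higher in cytoplasm and 505 (10.7%) in nuclei, against 33.5% and 19.2% of all probes. The members' median was lowest in TA, at -0.65 against -0.22 over all probes. It was -0.34 against -0.05 for EDL and -0.22 against -0.01 for soleus. On the slide that holds both fractions of TA there is only 1 cytoplasmic array, assumed in the fit to vary like the other groups, and 38.4% of member probes were higher in cytoplasm and 11.9% in nuclei, against 29.5% and 18.4% of all probes, with a median of -0.73 against -0.32. On the scan day shared by 2 cytoplasmic and 3 nuclear TA arrays the shares were 39.8% and 13.8%, against 30.7% and 20.6% of all probes, with a median of -0.56 against -0.25. Of 4359 member probes tested over the 3 muscles, 969 were higher in cytoplasm in each muscle and 292 higher in nuclei in each. Of all 40541 probes so tested on the array, 17.6% and 10.6% were. Calls in opposite directions in EDL and soleus were made for 1 member probe, a count without a share over all probes beside it.

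**Figure D1:**
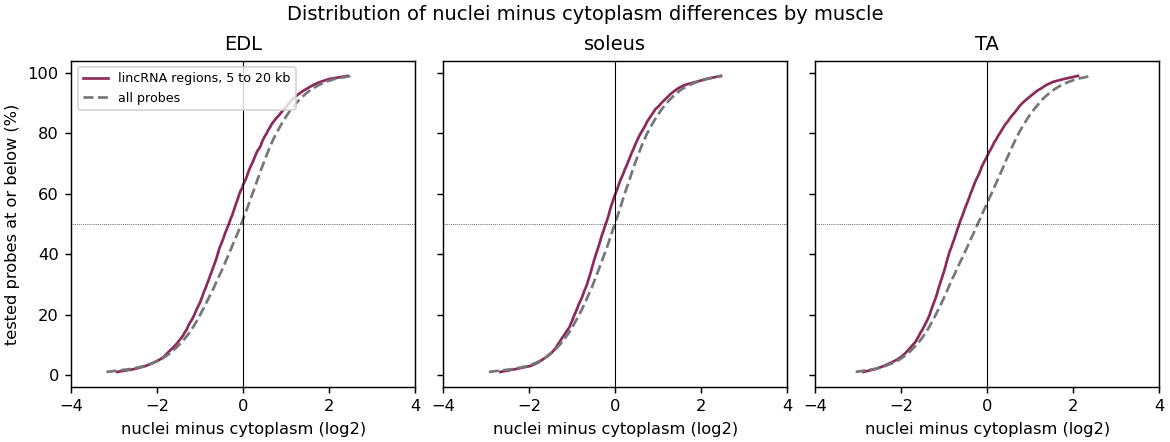
Cumulative distribution of the nuclei minus cytoplasm difference (x axis, log2) in EDL, soleus and TA, for member probes and for all probes tested on the array (y axis, percent of probes). In each muscle the members' curve runs to the left of that of all probes around the median, with medians of -0.34, -0.22 and -0.65 against -0.05, -0.01 and -0.22.

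The balance of directions depended on how arrays were put on 1 scale, so members are best read against all probes. Of the member probes called, 29.3% were higher in nuclei after quantile normalization, 20.6% after scaling to the 75th percentile and 57.3% with no scaling, where the median of all probes moved to 0.42. For EDL these shares were 30.9%, 19.9% and 57.1%. For soleus they were 35.9%, 23% and 90.8%, and for TA they were 19.3%, 14.2% and 23.2%. Relative to the median of all probes the members stayed lower under every scaling tried: the member median was 0.33 below it as reported (-0.41 against -0.08), and their gap was -0.36 with the 75th percentile, -0.36 with no scaling and -0.12 with another background correction.

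The rule for naming was met by 2 regions with at least 3 tested probes, all higher in nuclei. It required no overlap between the 9 nuclear and 9 cytoplasmic arrays, so that separation is not a result. At least as many of a region's tested probes had to be bright as not. Bright means well above background on at least 2 of 3 nuclear arrays in every muscle. The first, chr1:175705225-175717250_R, has 5 probes with differences of 1.48 to 3.00 and a median of 2.20. Its probe A_30_P01027543 had levels of 6.15 to 8.68 on cytoplasmic arrays, with a median of 7.16, and of 9.18 to 9.60 on nuclear arrays, with a median of 9.35. The difference was 2.20 (SE 0.16, limma adjusted p = 2.27e-08). By muscle it was largest in TA (2.89), followed by EDL (2.11) and soleus (1.60). Among gene probes around it on the same strand, that of the transcript ENSMUST00000111210 inside the interval differed by 2.34, and that of Ifi204, an interferon-inducible gene 27519 bases away, by 1.67.

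The other, chr5:22928221-22939127_R, holds the RIKEN transcript 5031425E22Rik on the same strand, whose own array probe could not be tested. The 3 probes of this region differed by 1.51 to 3.32. A_30_P01030591 had levels of 5.1 to 6.56 in cytoplasm (median 5.82) and 7.49 to 8.22 in nuclei (median 7.63). It differed by 1.95 (SE 0.16, limma adjusted p = 8.03e-08). On nuclear arrays the EDL values, 8.22, 8.08 and 8.13, were above those of soleus and TA. The excess in nuclei came to 2.47 for EDL, 1.68 for soleus and 1.69 for TA.

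In the opposite direction 18 regions met the same conditions for cytoplasm, and the 6 with the largest median are described. These counts have no share over other regions or all probes beside them, so nothing about the members is read from them. The largest was that of chr1:85117750-85129200_R, whose 3 tested probes differed by -4.85 to -4.19. Its probe A_30_P01026647 had levels of 8.77 to 10.63 in cytoplasm (median 9.72) and of 4.27 to 5.33 in nuclei (median 4.90). The difference was -4.82 (SE 0.21, limma adjusted p = 1.63e-10), with -4.58 in EDL, -5.43 in soleus and -4.44 in TA. The 2 probes of the region that were not tested were well above background on all 9 cytoplasmic arrays and on 2 and 0 nuclear arrays. The gene probe next to it on the same strand, for the transcript ENSMUST00000105170, was also lower in nuclei, by 2.27 (a difference of -2.27, limma adjusted p = 1.73e-07).

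Region chr2:181650800-181669350_F followed, with 3 probes between -4.58 and -2.93. A_30_P01018030 had levels of 10.64 to 12.80 in cytoplasm (median 12.31) and of 7.96 to 8.99 in nuclei (median 8.20), with a difference of -3.67 (SE 0.21, limma adjusted p = 1.68e-09). The second soleus cytoplasm array, at 10.64, was the lowest of the cytoplasmic values. Its other probes share sequence with probes named for other regions, so their signal can come from more than 1 place.

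Both strands of the interval chr16:89961600-89971725 were among the 6. The 3 forward probes differed by -3.13 to -2.99 and the 4 reverse probes by -3.01 to -2.66, and all 7 lie within a short stretch and overlap each other. On forward probe A_30_P01025498 the cytoplasmic levels were 9.23 to 11.24 (median 10.37) and the nuclear levels 7.01 to 7.64 (median 7.31). On reverse probe A_30_P01019800 they were 9.14 to 11.06 (median 10.30) and 6.97 to 7.72 (median 7.46). Opposite strands therefore gave nearly the same separation, and in both probes the first 10 bases recur 50 bases on, as in a tandem repeat.

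The remaining 2 were chr3:93582250-93592950_R and chr7:71222899-71230614_R. In the first, 4 tested probes differed by -2.88 to -1.98, and A_30_P01017848 had levels of 4.98 to 6.88 on 9 cytoplasmic arrays (median 5.50) and of 2.40 to 4.82 on the 7 nuclear arrays that gave a value (median 3.25). That probe was not well above background on any EDL or soleus nuclear array, so its excess in cytoplasm was at least 8.32-fold in EDL and at least 5.12-fold in soleus. Probes of the nearby genes Tdpoz4 and Tdpoz3 on the opposite strand, TD and POZ domain genes of a multicopy family, differed by -1.23 and -1.94. In the second, 3 probes differed by -3.88 to -2.26. A_30_P01027896 had levels of 7.98 to 9.03 in cytoplasm (median 8.57) and 6.06 to 6.37 in nuclei (median 6.25). It differed by -2.28 (SE 0.13, limma adjusted p = 2.63e-09). That probe's difference was nearly the same in each muscle, with -2.24 in EDL, -2.35 in soleus and -2.25 in TA.

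**Figure D2:**
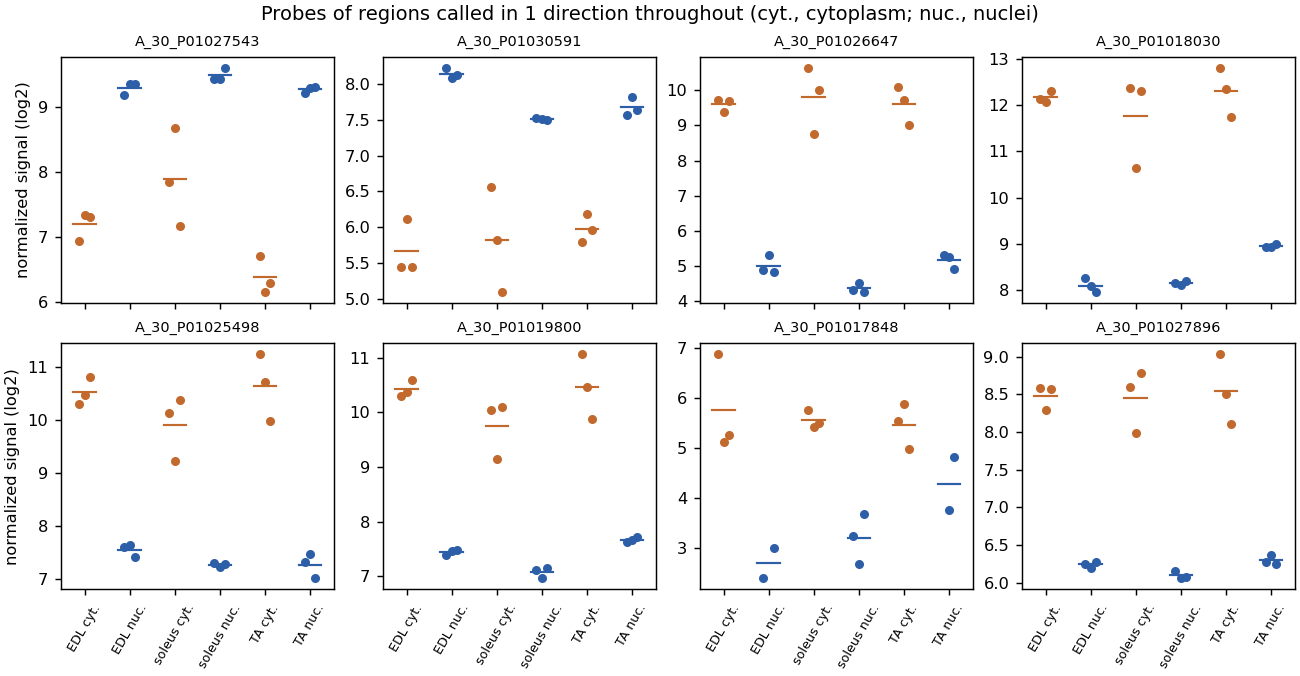
Normalized log2 intensity (y axis) of 1 probe from each of the 2 regions named above as higher in nuclei and the 6 named as higher in cytoplasm, on every cytoplasmic and nuclear array of EDL, soleus and TA (points are arrays, n = 3 per group). For each of the 8 probes no nuclear array overlaps a cytoplasmic one, which was a condition for naming the regions. A_30_P01026647 lies between 8.77 and 10.63 in cytoplasm and between 4.27 and 5.33 in nuclei.

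Some member probes were well above background in 1 fraction alone. On all 9 nuclear and no cytoplasmic array this was so for 16 probes in 16 regions (0.272% of members, against 0.456% of the other probes), and on all 9 cytoplasmic and no nuclear array for 33 probes in 30 regions (0.56%, against 0.707%). Such a probe has only a bound in its dim fraction, and the folds that follow are lower bounds against the higher of 2 levels: the dimmest signals the scanner accepted on those arrays, or the mean of the dim probe's own values there. The cause of these on and off patterns was not tested.

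Among nuclear examples was A_30_P01029057 of chr10:96082444-96096696_R. Its levels were 6.48, 6.59 and 6.63 in EDL nuclei, 6.78, 6.56 and 6.76 in soleus nuclei and 5.87, 6.33 and 5.97 in TA nuclei, while no EDL cytoplasm array gave a value. It was at least 18.1-fold higher in nuclei in EDL, at least 14.1-fold in soleus and at least 9.56-fold in TA, and the other 4 probes of the region were also higher in nuclei, by 0.70 to 1.91. The interval contains a probe of Btg1, an antiproliferation gene, on the opposite strand, which was higher in nuclei by 4.73 (limma adjusted p = 6.74e-09). A_30_P01033076 of chr4:126710640-126721240_R, 2161 bases from a probe of the splicing factor gene Sfpq, was at least 15.1-fold higher in nuclei in EDL, at least 14.3-fold in soleus and at least 8.32-fold in TA. All 8 tested probes of that region were higher in nuclei, with a median of 2.27. A_30_P01031039 of chr17:85418489-85427364_R was at least 14.5-fold, 31.4-fold and 4.66-fold higher in nuclei in EDL, soleus and TA, where too few cytoplasmic arrays gave a value for a test, and its soleus nuclear levels, 7.58, 7.73 and 7.87, were the highest of its 9 nuclear values.

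Cytoplasmic examples were A_30_P01023842 of chr1:87412059-87419385_F, A_30_P01022511 of chr14:44151048-44156924_R and A_30_P01025049 of chr3:93582250-93592950_R. A_30_P01023842 had cytoplasmic levels of 7.38, 7.44 and 7.29 for EDL, 7.97, 6.61 and 7.84 for soleus and 7.8, 7.20 and 7.07 for TA. It was at least 29.4-fold higher in cytoplasm in EDL, at least 21.5-fold in soleus and at least 27.8-fold in TA. The same-strand probes of Gm2427, 286 bases away, and of Sp140, a nuclear body protein gene further on, were higher in cytoplasm too, with differences of -1.25 and -2.56. A_30_P01022511 was at least 36.5-fold, 32.6-fold and 15.2-fold higher in cytoplasm, and A_30_P01025049 at least 10.5-fold, 5.63-fold and 6.76-fold, in EDL, soleus and TA. Near A_30_P01022511, the predicted gene Gm10375 on the same strand differed by -3.77.

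Regions were then sorted by the calls of their probes within single muscles. A region counted as nuclear if any of its probes was called higher in nuclei in any muscle with no call the other way, as cytoplasmic if all of its calls were to cytoplasm, and as mixed if it had calls of both kinds. Of 1501 regions with a probe tested in some muscle, 841 (56%) were cytoplasmic, 213 (14.2%) nuclear and 284 (18.9%) mixed, and 163 (10.9%) had no call. In 206 mixed regions, probes were called in opposite directions in the same muscle, and in 33 a single probe turned from one muscle to another. Shorter lincRNA regions, under 5 kb, were mixed in 9.18% of cases and regions over 20 kb in 21.7%, values that were not tested against each other and come from unequal numbers of probes per region. When at least 2 probes were needed for a call, 42 members were mixed.

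Probes of 1 region tended to give like values without being the same. Among the 804 regions with at least 3 tested probes, the median was below 0 in 568 and above 0 in 236. Every tested probe was higher in cytoplasm in 162 of them and higher in nuclei in 40, and 184 had calls in both directions. The SD between the probes of a region was 0.54 (median over regions), against 0.96 over all tested member probes. Likeness fell with distance. Pairs of probes less than 60 bases apart differed by a median of 0.17, pairs 60 to 500 bases apart by 0.51, and pairs 5000 bases or more apart by 0.72. Where both probes of a pair were called, 0 of 47 of the nearest pairs, 13.1% of those at 60 to 500 bases and 28.5% of the most distant ones had opposite directions. These pairs share probes and arrays, so the shares are descriptions.

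The 2 strands of an interval also moved alike. In 492 intervals with a tested probe on each strand, both medians were below 0 in 322, both above 0 in 90 and of opposite sign in 80 (16.3%). Across these intervals the strand medians had a Pearson r of 0.72, and differed by a median of 0.36 without regard to sign. Intervals are not independent replicates, and both values of a point come from the same 18 arrays. Probes on opposite strands that are complementary over at least 30 bases, such as the printed pair, formed 602 tested pairs with an r of 0.84, and of 383 pairs with both probes called, 302 were higher in cytoplasm, 70 higher in nuclei and 11 opposite. Signal on both strands was thus common where probes were complementary, and its source was not tested.

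**Figure D3:**
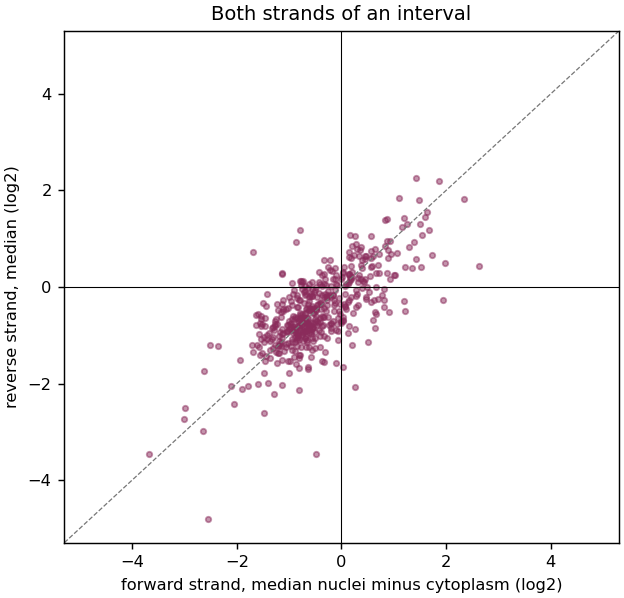
Median nuclei minus cytoplasm difference (log2, over the 3 muscles) of the forward entry (x axis) against that of the reverse entry (y axis), for the 492 intervals with a tested probe on both strands. Points in the lower left (322) and the upper right (90) have the same sign on both strands, and 80 points have opposite signs.

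In 25 intervals each strand had at least 2 called probes and the medians were of opposite sign, and 3 of these had the largest gap. In chr4:136856064-136875614, next to the GTPase gene Cdc42 and 3806 bases from a probe of Wnt4, the forward median was 1.95 and the reverse median -0.27. Forward probe A_30_P01018155 differed by 1.95 (SE 0.17, limma adjusted p = 9.71e-08). Forward probes ran from -0.18 to 2.40 and reverse probes from -0.97 to 1.42, so neither entry was uniform. The reverse probe at the median, A_30_P01022016, did not pass and changed sign with no scaling between arrays. In chr14:78214602-78226287 the medians were 0.51 forward and -1.14 reverse, and reverse probe A_30_P01018605 differed by -1.76 (SE 0.12, limma adjusted p = 1.37e-08). A probe of Dnajc15, a gene for a mitochondrial co-chaperone that lies inside on the reverse strand, differed by 0.20 (SE 0.19) and did not pass the test. In chr1:134867906-134885481 all 9 forward probes were higher in nuclei, by 0.91 to 1.39, while 4 of the 9 tested reverse probes were higher in cytoplasm and the rest did not pass, with a median of -0.29. Mdm4, a regulator of p53, has a probe 945 bases away on the reverse strand that was higher in nuclei by 2.09.

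Of the properties the selection did not use, base composition went with the difference most. Member probes with at most 35% G and C had a median difference of 0.27, and 45.2% of them were higher in nuclei. The median was 0.03 at 35 to 40%, -0.45 at 40 to 45%, -0.64 at 45 to 50%, -0.60 at 50 to 55% and -0.37 above 55%, where 12% were higher in nuclei. Other probes on the array moved the same way, with medians of 0.60, 0.26, -0.16, -0.29, -0.30 and -0.22 in these classes, and members were below them in every class. Detection rose with the same share, from 28.9% in cytoplasm and 33.3% in nuclei at the lowest GC content to 97.7% and 98.4% at the highest. The part of base composition in the differences was not tested.

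**Figure D4:**
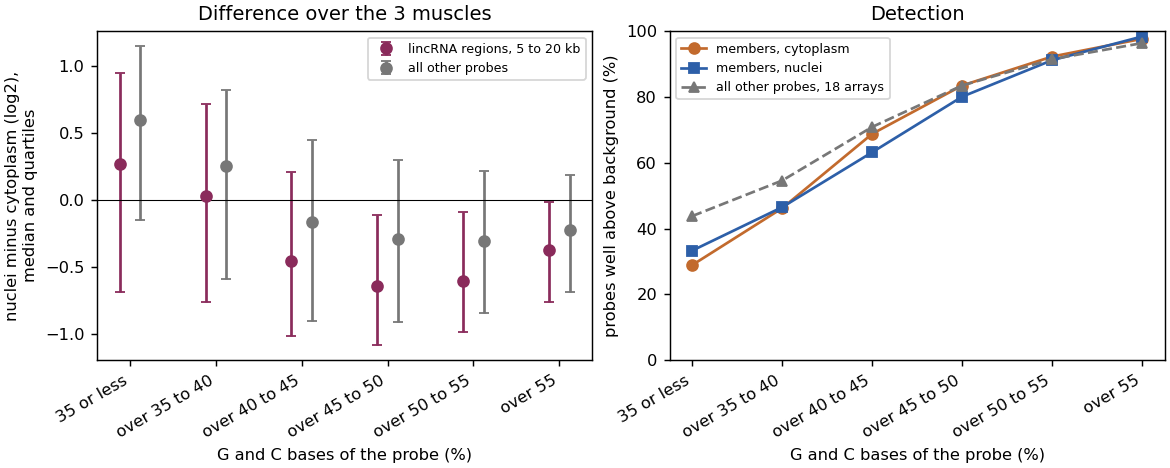
Nuclei minus cytoplasm difference (y axis, log2, median and quartiles) by class of probe GC content (x axis, percent) for member probes and for other probes on the array. Both fall from the lowest class, at 0.27 and 0.60, to the 45 to 50% class, at -0.64 and -0.29 (the others are at -0.30 in the 50 to 55% class), and members are below the others in every class.

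Place and length mattered less. Along the region, in 5 equal steps, the median difference of probes ranged from -0.46 to -0.39. By length it ranged from -0.30 at 8 to 11 kb to -0.54 at 14 to 17 kb. By strand it was -0.40 for forward and -0.43 for reverse probes. A gene probe inside the interval on the same strand was tested for 202 regions, and its difference had the sign of the region's median in 67.3% of them. On the opposite strand this was 63.4% of 172 regions.

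Soleus and EDL were compared next, within each fraction, to ask which regions differ between a slow and a fast muscle. In nuclei, 17 of 4810 member probes (0.353%) were higher in soleus, against 0.978% of all probes, and 11 (0.229%) were higher in EDL, against 0.579% (limma, adjusted p under 0.05). In cytoplasm, 11 of 4888 (0.225%) were higher in soleus, against 0.853% of all probes, and 31 (0.634%) were higher in EDL, against 0.57%. At an unadjusted p under 0.05 there were 327 in nuclei (6.8%, against 9.56% of all probes) and 708 in cytoplasm (14.5%, against 14.4%). With the replicate as a block, since by the labels the same mice gave both muscles, 7 and 3 probes passed in nuclei and 5 and 8 in cytoplasm, for soleus and EDL. The split of calls depended on scaling: soleus had 60.7% of the calls in nuclei as reported, 50% with the 75th percentile and 94.4% with no scaling, and 26.2%, 34.6% and 4.62% of those in cytoplasm. In pooled fibers, fewer cells or fibers of a type and less RNA per cell cannot be told apart. Leaving out any 1 nuclear array changed both counts in nuclei by more than 1.5 times. In cytoplasm this held for some of the arrays left out but not for all. The ranges are given with the other settings.

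The largest difference in nuclei was in chr1:78591605-78606083_R, which contains the RIKEN transcript 5730419F03Rik on the same strand. A_30_P01030196 had levels of 7.81, 7.75 and 7.94 in soleus nuclei and of 5.03, 5.17 and 4.83 in EDL nuclei, and no TA nuclear array gave a value. In cytoplasm it had 4.24, 5.79 and 4.84 in soleus, 2.87, 3.81 and 3.29 in EDL and 2.80, 3.26 and 2.77 in TA. Soleus nuclei were above EDL nuclei by 2.82 (SE 0.34, limma adjusted p = 0.000515). The rule for naming required that these arrays did not overlap. In cytoplasm the probe was well above background on 1 of 3 soleus arrays and on 0 of 3 EDL arrays. Mean levels there were 4.96 in soleus and 3.32 in EDL (limma adjusted p = 0.0313), and no bound on the fold is given since both groups were dim. The neighbouring probe A_30_P01030359 was higher in soleus nuclei by 1.78 (SE 0.19, limma adjusted p = 7.58e-05) and differed by -0.07 in cytoplasm. The remaining probe, A_30_P01022829, differed by -0.11 in nuclei (limma adjusted p = 0.986), so the difference was not one of the whole region.

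Region chr15:68924889-68931607_R has 1 probe, A_30_P01026487, in an interval 954 bases from a probe of the RNA-binding protein gene Khdrbs3 on the other strand. Its levels were 6.68, 6.75 and 7.02 in soleus nuclei and 4.74, 4.73 and 5.01 in EDL nuclei, and 4.46, 5.16 and 4.30 in soleus cytoplasm against 2.49, 3.83 and 2.39 in EDL cytoplasm. Soleus was higher in nuclei by 1.99 (SE 0.34, limma adjusted p = 0.00748), with no overlap, which the rule for naming required. In cytoplasm the probe was well above background on 1 of 3 soleus arrays and 0 of 3 EDL arrays. Soleus was higher there by 1.74 (SE 0.34, limma adjusted p = 0.0233), and no bound on the fold is given since both groups were dim. In chr18:63355660-63369610_F, 1 of 5 probes, A_30_P01018644, was at least 3.83-fold higher in soleus nuclei (limma adjusted p = 0.0143), since it was not well above background on any EDL nuclear array and 2 of these gave a value. Higher in EDL nuclei were A_30_P01021472 of chr2:168606645-168621395_R (at least 3.69-fold, not well above background in soleus nuclei, limma adjusted p = 0.023), A_30_P01019385 of chr3:35782698-35789932_F (soleus minus EDL -1.39, limma adjusted p = 0.0333) and A_30_P01031241 of chr2:59235155-59242518_F (-1.37, limma adjusted p = 0.0246). In the last region the other 2 probes were at -1.07 each, with adjusted p of 0.0417 and 0.0577 in limma.

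In cytoplasm, chr4:129497990-129515290_F had the largest fitted difference, for which a lower bound is given since its probe was dim in soleus. It lies 9855 bases from a probe of the phosphatase gene Ptp4a2 and contains 5830469G19Rik on the same strand. A_30_P01025375 had levels of 5.59, 6.10 and 5.51 in EDL cytoplasm and of 2.51, 3.20 and 3.03 in soleus cytoplasm, where it was not well above background. Nuclear levels were 5.31, 5.72 and 5.43 in EDL and 5.17, 5.08 and 5.42 in soleus, and TA levels were 5.13 to 5.87 in cytoplasm and 5.67 to 6.23 in nuclei. Soleus cytoplasm alone was low, and EDL cytoplasm was at least 6.66-fold higher (limma adjusted p = 2.3e-05), while in nuclei the difference was -0.26. The overlapping probe A_30_P01030578, shifted by a few bases, was at least 4.15-fold higher in EDL cytoplasm (limma adjusted p = 0.0319) and likewise not well above background in soleus cytoplasm, and the other probes of the region did not pass in cytoplasm.

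Higher in EDL cytoplasm were also A_30_P01031832 of chr13:23517278-23523756_F, by at least 3.31-fold (limma adjusted p = 0.0393), and A_30_P01021889 of chr16:30936314-30954449_F, by at least 3.14-fold (limma adjusted p = 0.0163). Neither was well above background in soleus cytoplasm. Higher in soleus cytoplasm were A_30_P01022549 of chr1:175705225-175717250_R, by at least 2.37-fold (limma adjusted p = 0.0276), A_30_P01018275 of chr16:14803358-14819925_R, at 0.86 on the log2 scale (limma adjusted p = 0.035), and A_30_P01027629 of chr8:35650475-35664200_R, at 0.84 on that scale (limma adjusted p = 0.0493). The first of these is in a region named above as higher in nuclei. Its cytoplasmic levels were 5.22, 6.09 and 5.01 in soleus, 4.31, 4.1 and 4.18 in EDL and 3.45, 2.63 and 3.43 in TA, against 6.85 to 7.24 on all nuclear arrays. It was not well above background on any EDL or TA cytoplasm array, so no order of those 2 groups is read from these values. With the replicate as a block, 7 of the 12 probes named for soleus against EDL lost their call, and those of chr1:78591605-78606083_R, chr15:68924889-68931607_R, chr2:168606645-168621395_R, chr4:129497990-129515290_F and chr16:30936314-30954449_F passed.

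Whether the nuclei minus cytoplasm difference itself varied between the 3 muscles was tested as an interaction. It passed for 82 of 4359 member probes (1.88%), against 1.55% of all probes, and for 881 at an unadjusted p under 0.05 (20.2%, against 16.7% of all probes). Of the pairs of muscles, TA against soleus gave 179 member probes (4.03%, against 3.33% of all probes), TA against EDL gave 11 (0.245%, against 0.339%) and soleus against EDL gave 3 (0.0663%, against 0.0286%), all in limma after adjustment. These counts moved with the setting: with the slide as a random block 5 member probes passed, and with the replicate as a block 2. Without the third TA cytoplasm array 225 passed, and without the third soleus nuclear array 15. EDL and soleus shared a slide in each fraction, so a slide shift common to both leaves the interaction between them unmoved, whereas for TA against either muscle the slide and the interaction cannot be fully told apart.

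In 5 regions the interaction rested on more than 1 probe, and they are named by the second lowest p among their probes. In chr17:85418489-85427364_R, 2028 bases from a probe of the phosphatase gene Ppm1b on the other strand, A_30_P01027818 had nuclear levels of 7.35, 7.12 and 7.24 for EDL, 8.14, 8.12 and 8.06 for soleus and 6.02, 6.18 and 5.99 for TA. Cytoplasmic levels were 4.43, 4.98 and 4.85 for EDL, 5.21, 5.00 and 5.41 for soleus and 5.1, 4.72 and 4.78 for TA. Nuclei were above cytoplasm in every muscle, with no overlap, by 2.48 in EDL, 2.90 in soleus and 1.2 in TA (SE 0.18 each), and the interaction had a limma adjusted p of 0.0119. All 6 tested probes of this region were higher in nuclei over the 3 muscles, by 0.95 to 2.20.

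In chr5:35975265-35982561_R all 4 probes were higher in cytoplasm, by a difference of -2.16 to -1.95. A_30_P01026124 had nuclear levels of 9.56, 9.78 and 9.74 for EDL, 9.46, 9.52 and 9.41 for soleus and 11.44, 11.41 and 11.35 for TA, with cytoplasmic levels of 11.67 to 12.89 on all arrays. TA nuclei alone were high, and the difference came to -2.32 for EDL, -2.46 for soleus and -1.14 for TA (interaction, limma adjusted p = 0.0355).

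The direction of A_30_P01026565 in chr4:129376440-129391690_R, an interval that holds a probe of the RNA-binding protein gene Khdrbs1 on the same strand, turned between muscles. Its nuclear levels were 5.49, 5.66 and 5.61 for EDL, 5.59, 5.74 and 5.45 for soleus and 3.89, 4.31 and 4.34 for TA. Nuclei minus cytoplasm came to 0.55 for EDL, 1.2 for soleus and -1.15 for TA (interaction, limma adjusted p = 0.0404), and 1 soleus cytoplasm array gave no value. The Khdrbs1 probe was higher in cytoplasm in each muscle, at -1.86, -1.74 and -2.33.

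For A_30_P01022329 of chr3:83089315-83108396_F nuclei minus cytoplasm came to 0.99 for EDL, 0.70 for soleus and -0.14 for TA (interaction, limma adjusted p = 0.0473), with nuclear levels of 6.83 to 7.11 in EDL and soleus and of 5.91 to 5.99 in TA. For A_30_P01029430 of chr14:62267786-62285335_F, 15766 bases from a probe of the non-coding RNA gene Dleu2 on the other strand, the values were 1.87 for EDL, 1.98 for soleus and 0.02 for TA (interaction, limma adjusted p = 0.0481). In 4 of these 5 probes TA nuclei were the lowest nuclear group, and in A_30_P01026124 they were the highest. None of the 5 passed with the slide as a random block, with the replicate as a block, or with the nuclear arrays of a group counted as 1 sample.

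**Figure D5:**
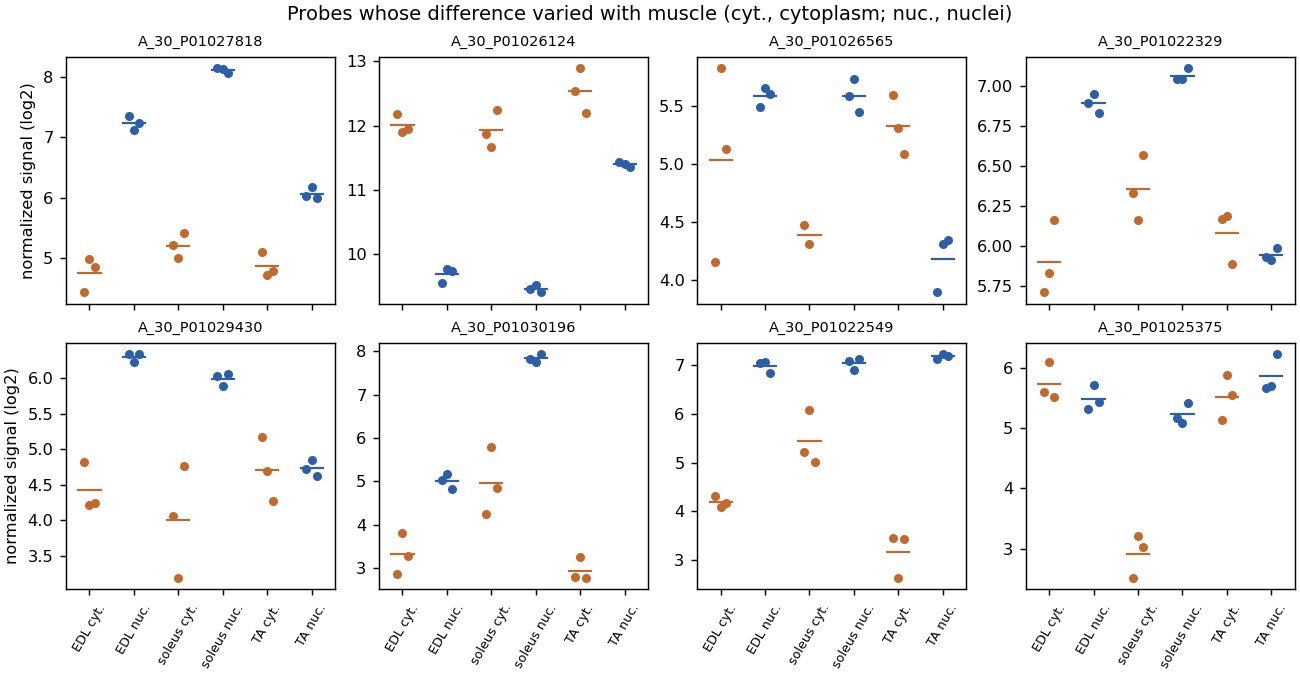
Normalized log2 intensity (y axis) on every cytoplasmic and nuclear array of EDL, soleus and TA (points are arrays, up to 3 per group) for the 5 probes named for the interaction and for 3 probes named for soleus against EDL. A_30_P01030196 is at 7.75 to 7.94 in soleus nuclei and 4.83 to 5.17 in EDL nuclei, and A_30_P01025375 is at 2.51 to 3.20 in soleus cytoplasm and 5.51 to 6.10 in EDL cytoplasm.

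Regions at known non-coding host genes did not behave as units. Gas5 and Snhg3 are spliced hosts of small nucleolar RNAs, and Mirg is a maternally expressed host of microRNAs in the Dlk1-Dio3 imprinted cluster. At Gas5, probe A_30_P01026422 of chr1:162965309-162970704_F was higher in nuclei by 1.48 (SE 0.12, limma adjusted p = 6.17e-08), by 0.97 in EDL, 1.12 in soleus and 2.36 in TA, while the array's own Gas5 gene probe inside the interval, on the same strand, was higher in cytoplasm (-1.0, SE 0.15). At Snhg3, A_30_P01032280 of chr4:131905739-131910814_R was higher in cytoplasm (-0.87, SE 0.12, limma adjusted p = 1.29e-05), and A_30_P01030396 of the overlapping chr4:131903928-131909578_R was at -0.35 and was not well above background on any array. The array's own Snhg3 gene probe, inside both intervals on the same strand, was higher in nuclei by 1.35 (SE 0.30, limma adjusted p = 0.000899). At Mirg, the probes of chr12:110973190-110987668_F differed by -1.53, 0.13 and -0.27, of which the first, A_30_P01029937, passed (limma adjusted p = 1.37e-08).

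Marker genes give a view of what the fractions held. Probes of the nuclear RNAs Malat1, Neat1, Meg3 and Kcnq1ot1 were all higher in nuclei, by 2.23 to 3.27. Of 7 slow fiber genes, 6 were higher in soleus in both fractions, and of 9 fast fiber genes 1 was higher in EDL in nuclei and 3 in cytoplasm. Between fractions, 8 of the 9 fast and 4 of the 7 slow fiber genes passed as nuclear, and 0 of either list as cytoplasmic. The median difference over the fast list was 0.55 and over the slow list 0.71. Why messenger RNAs of the fibers leaned to the nuclear side was not tested. Genes of other cells that can adhere to fibers also differed between fractions: 6 of 6 endothelial, 5 of 5 fibroblast and 4 of 4 Schwann cell genes were higher in nuclei, and 4 of 5 macrophage genes were higher in cytoplasm. Of 5 satellite cell genes 2 could be tested and 1 was higher in nuclei. Of 3 erythroid genes 1 was higher in cytoplasm. The part of these cells in the differences of lincRNA regions was not tested.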

How the data were processed

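Processed scanner files of 18 one-colour arrays (SurePrint G3 Mouse, positions on mm9) were used. Per the file headers, the authors made their intensity values with Agilent Feature Extraction 10.7.3.1, which subtracted background and detrended within each array. The deposited table of quantile-normalized intensities covers 3668 probe names and served as an alternative, after its values were taken to log2. Its columns and all scanner columns used were matched to samples by the labels. As in the study's methods, spots without the positive and significant flag were set to missing. Spots with an outlier flag were also set to missing and control spots dropped, steps added here. Log2 values were then quantile-normalized between arrays, and spots of a probe averaged. Group means were fitted with limma 3.58.1 in R 4.3.3, in place of the Significance Analysis of Microarrays, with Benjamini-Hochberg adjustment over all probes tested and a threshold of 0.05. Where a probe was not well above background on any array of a group, a fold is a lower bound against the higher of the arrays' dimmest accepted signals and the probe's own measured mean. The fit was tested on simulated data. The members, lists and rules were chosen with earlier results of these data known.

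Regions were named by 6 rules. The first took the 6 with the largest median in each direction among regions with at least 3 tested probes. These were all called and did not overlap between fractions, and at least as many were bright as not. Bright means well above background on at least 2 of 3 arrays of the brighter fraction in every muscle. In nuclei 2 regions met this. The second took the 5 with the smallest second-lowest interaction p over their probes. The third took the 3 with the largest called difference between soleus and EDL per fraction and direction. Its probes were well above background on all 3 arrays of the brighter muscle, without overlap between muscles. The others took the 3 intervals with the largest gap between strands, and 3 regions per fraction with probes well above background there alone. The last took regions at known non-coding host genes. EDL and soleus pools with the same replicate number came from the same mice by their labels, so numbers pair these samples, although deviations of paired arrays correlated only at -0.111 to 0.101 over probes. The cytoplasmic and nuclear fractions of EDL or of soleus with the same number correlated at -0.0172 to 0.0353. TA fractions of the same number shared 1 mouse in numbers 1 and 2 and none in number 3, and correlated at -0.0874 to 0.131. The fit without this block was the reported one. The p-values rest on the spread between pools within groups, taken per probe as 1 estimate shared by all 6 groups. Cytoplasm groups spread more than nuclei groups, with median SDs of 0.28 to 0.40 against 0.13 to 0.17. The shared estimate can thus be too small for comparisons within cytoplasm and too large for those within nuclei. The number of arrays limits the precision. TA cytoplasm pools 1 and 2 shared a mouse by their labels, so they were not independent in mice, and the fit took no account of this. Alternatives in scaling, background, filters, slide and replicate blocks, single arrays left out and the deposited values are given in the closing section.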

Additional observations from a re-analysis of the deposited data

Results flagged for a closer look

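In 5 named probes the nuclei minus cytoplasm difference itself differed between muscles by a test of the interaction (limma, adjusted over all probes). The adjusted p was 0.0119 for A_30_P01027818 of chr17:85418489-85427364_R, where nuclei exceeded cytoplasm by 2.48 for EDL, 2.90 for soleus and 1.2 for TA on the log2 scale. For A_30_P01026124 of chr5:35975265-35982561_R, higher in cytoplasm in all 3 muscles and least so in TA, it was 0.0355. For A_30_P01026565 of chr4:129376440-129391690_R, whose difference was 1.2 in soleus and -1.15 in TA, it was 0.0404. For A_30_P01022329 of chr3:83089315-83108396_F it was 0.0473 and for A_30_P01029430 of chr14:62267786-62285335_F 0.0481, with differences in TA of -0.14 and 0.02. All 5 lost the call with the slide as a random block, with the replicate block and with nuclear arrays as 1 sample. The cause was not tested.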

How the results depend on the processing

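Pooling the 3 muscles, 900 member probes passed as nuclear and 2176 as cytoplasmic as reported, 1562 and 1166 with no scaling between arrays, 498 and 1090 with the slide as a random block, 444 and 1406 with the nuclear arrays of a group as 1 sample, and 98 and 62 among the 303 tested members of the deposited table. In EDL, 710 and 1590 became 1185 and 892, 224 and 393, 74 and 286, and 65 and 45 under these 4 settings. In soleus, 688 and 1226 became 2311 and 233, 172 and 159, 38 and 98, and 64 and 38. In TA, 505 and 2105 became 56 and 435 with nuclear arrays as 1 sample and 56 and 59 in the deposited table, and 792 were higher in nuclei when spots without the flag were kept. The medians, -0.41 over the 3 muscles, -0.34 in EDL, -0.22 in soleus and -0.65 in TA, were -0.65, -0.61, -0.48 and -0.88 with the 75th percentile and -0.16, -0.13, -0.09 and -0.24 with normexp background. Keeping spots without the flag gave -0.18 over the 3 muscles, -0.13 in EDL and -0.30 in TA, and the slide block -0.22 in EDL and -0.09 in soleus. They turned to 0.06 over the 3 muscles, 0.03 in EDL and 0.73 in soleus with no scaling, and to 0.10, 0.15, 0.10 and 0.08 in the deposited table. The causes were not tested. Leaving out 1 array kept all 4 medians below 0. In soleus they ran from -0.37, without the second cytoplasm array, to -0.17.

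For soleus against EDL in nuclei, the 17 probes higher in soleus became 68 with no scaling, 27 with spots without the flag kept, 27 with the slide block, 0 with nuclear arrays as 1 sample and 2 in the deposited table. The 11 higher in EDL became 21 with the 75th percentile, 4 with no scaling, 39 with normexp, 27 with spots kept, 26 with the slide block, 0 with nuclear arrays as 1 sample and 1 in the deposited table. At an unadjusted p under 0.05 in limma, 22 member probes passed with nuclear arrays as 1 sample. In cytoplasm the 11 higher in soleus became 3 with no scaling, 6 with a filter on probes well above background, 7 with a value on 3 of 3 arrays, 26 with the slide block and 0 in the deposited table (43 at an unadjusted p under 0.05 in limma, in both directions). The 31 higher in EDL became 17 with the 75th percentile, 62 with no scaling, 51 with spots kept, 76 with the slide block and 2 in the deposited table. Leaving out any 1 of the 6 nuclear arrays gave 4 to 8 higher in soleus and 1 to 4 higher in EDL. Leaving out 1 cytoplasm array gave 5 (without the second EDL array) to 24 (without the third soleus array) higher in soleus, and 14 to 49 higher in EDL without the same arrays. The 82 interaction calls became 2087 with no scaling, 161 with normexp, 147 with spots kept, 5 with the slide block, 10 in the deposited table and 0 with nuclear arrays as 1 sample, where 75 passed at an unadjusted p under 0.05 in limma. Leaving out 1 array gave 15 (without the third soleus nuclear array) to 225 (without the third TA cytoplasm array).

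With the replicate number as a block, 7 probes were higher in soleus and 3 in EDL in nuclei, 5 and 8 in cytoplasm, and 2 passed the interaction. The block changed no other count of probes by more than 1.5 times, and gave 870 nuclear and 2126 cytoplasmic calls over the 3 muscles.

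By the positive and significant flag, detection was 87.2% in EDL cytoplasm, 84.5% in EDL nuclei, 84.8% and 85% in soleus, and 88.6% and 81.8% in TA. The 213 nuclear regions became 393 with no scaling and 65 with nuclear arrays as 1 sample, and the 841 cytoplasmic ones 405 and 374. The 284 mixed regions became 42 with at least 2 probes called, 14 with the mean of a region's probes, 593 with no scaling and 4 with nuclear arrays as 1 sample. The 163 without a call became 629, 342 and 1058 under the first 2 and the last of these, and 104 with the 75th percentile. With no scaling, A_30_P01022016 of chr4:136856064-136875614_R turned to 0.18, A_30_P01030965 of chr1:134867906-134885481_R to 0.42 and A_30_P01019435 of chr12:110973190-110987668_F to 0.48. These are values over the 3 muscles, where none of the 3 probes had passed as reported. The probes named for the largest contrasts between fractions kept their call under every alternative run for them. Precision is limited by 3 pools per group and by signal over background, since 842 member probes were not well above background on any array.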
